A study of Homo sapiens with 6 samples.

Results

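Binding of the transcription factors PLAG1-S and USF2 was examined at 51 genes that encode the subunits of the vacuolar H+-ATPase (V-ATPase) and the proteins that turn mTORC1 on or off at the surface of the lysosome. The genes were chosen by name, with earlier results of these data known. A peak was given to a gene when it lay inside the gene body or within 3 kb of it on hg38. All 51 were among the 20037 protein-coding genes of the reference, and 95 PLAG1-S and 41 USF2 peaks of clone 4 lay in these windows, against 85 and 22 in clone 5. The cells were K562, an established human chronic myeloid leukemia line, in 2 clones (4 and 5) that co-overexpress Flag-PLAG1-S and USF2. PLAG1-S is a short form of the zinc finger factor PLAG1 made from an internal start codon, and it was precipitated through its Flag tag. Each clone gave 1 anti-Flag, 1 anti-USF2 and 1 input library of 50 bp single-end reads, sequenced to 42.5 M reads per immunoprecipitation and 55 M per input by the labels. Both factors were overexpressed in every library, cells without them were not analysed here, and each replicate was 1 clone of the same line.

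The V-ATPase pumps protons into the lysosome. Its membrane sector, V0, holds the proton-carrying ring, and its cytosolic sector, V1, hydrolyzes ATP. The pump also sits next to the Ragulator complex, which anchors the Rag GTPases to the lysosome. When amino acids are plentiful the Rags bring mTORC1 to the lysosomal surface, where the small GTPase RHEB activates it. GATOR1 and the TSC complex switch the Rags and RHEB off, and the FLCN-FNIP complex acts on RagC and RagD. USF2 is a basic helix-loop-helix factor that binds the E-box CACGTG, a motif it shares with other factors of its class, among them TFEB, a known regulator of lysosomal genes.

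The sequences below are shown because the 8 co-bound promoters among them hold an E-box, and at all but RRAGB it is the one nearest to the clone 4 PLAG1-S summit. At RRAGB the nearest E-box starts 8 bases after the start and is not printed. Each is the 150 bases before the annotated start of the gene, from RefSeq (GRCh38.p14), read 5′ to 3′ on the strand of the gene. Capitals mark CACGTG. The promoters of ATP6V1D and MTOR, which had PLAG1-S peaks at their starts but no USF2 peak there, are shown for contrast and hold no CACGTG in these bases.
ATP6V0D1 (chr16:67481158-67481307, minus strand): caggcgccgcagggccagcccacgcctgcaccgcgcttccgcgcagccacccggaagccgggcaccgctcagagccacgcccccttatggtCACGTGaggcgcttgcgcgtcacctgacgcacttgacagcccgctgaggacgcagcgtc
ATP6V0B (chr1:43974810-43974959, plus strand): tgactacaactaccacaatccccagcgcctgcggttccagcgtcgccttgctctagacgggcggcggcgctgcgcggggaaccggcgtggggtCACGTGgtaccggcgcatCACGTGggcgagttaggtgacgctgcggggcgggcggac
ATP6V1G1 (chr9:114587619-114587768, plus strand): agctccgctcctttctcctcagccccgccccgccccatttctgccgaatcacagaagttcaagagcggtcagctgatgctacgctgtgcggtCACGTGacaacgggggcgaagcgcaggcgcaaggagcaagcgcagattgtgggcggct
RRAGC (chr1:38859773-38859922, minus strand): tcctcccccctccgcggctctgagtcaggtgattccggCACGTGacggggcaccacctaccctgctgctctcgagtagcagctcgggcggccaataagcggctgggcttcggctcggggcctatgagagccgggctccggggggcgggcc
RRAGB (chrX:55717599-55717748, plus strand): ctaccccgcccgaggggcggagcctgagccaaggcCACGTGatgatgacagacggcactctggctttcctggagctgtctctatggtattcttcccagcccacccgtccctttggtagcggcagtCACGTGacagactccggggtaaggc
LAMTOR4 (chr7:100148768-100148917, plus strand): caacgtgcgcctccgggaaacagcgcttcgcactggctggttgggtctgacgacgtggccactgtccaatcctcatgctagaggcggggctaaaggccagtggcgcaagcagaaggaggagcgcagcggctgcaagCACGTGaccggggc
FNIP1 (chr5:131797018-131797167, minus strand): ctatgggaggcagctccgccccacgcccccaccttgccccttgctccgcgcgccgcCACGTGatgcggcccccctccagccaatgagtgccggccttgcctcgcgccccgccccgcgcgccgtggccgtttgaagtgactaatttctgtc
TSC2 (chr16:2047835-2047984, plus strand): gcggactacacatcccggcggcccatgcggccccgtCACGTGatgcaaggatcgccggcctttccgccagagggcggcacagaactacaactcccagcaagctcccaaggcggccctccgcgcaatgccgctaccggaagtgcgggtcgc
ATP6V1D (chr14:67359805-67359954, minus strand): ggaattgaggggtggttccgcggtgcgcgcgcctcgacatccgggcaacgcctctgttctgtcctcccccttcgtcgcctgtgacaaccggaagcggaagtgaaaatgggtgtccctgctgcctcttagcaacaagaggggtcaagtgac
MTOR (chr1:11262552-11262701, minus strand): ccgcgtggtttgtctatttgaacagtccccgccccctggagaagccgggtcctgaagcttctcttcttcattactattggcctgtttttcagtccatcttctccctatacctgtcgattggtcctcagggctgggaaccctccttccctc

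Peaks of clone 4 that shared at least 1 bp with one in clone 5 were taken as reproducible. A site was called co-bound when a reproducible PLAG1-S peak had a reproducible USF2 peak within 100 bp of its edges. Of the 51 genes, 46 (90.2%) had a reproducible PLAG1-S peak, against 52.0% of all protein-coding genes under the same rule. A reproducible USF2 peak lay at 20 genes (39.2%), against 10.3% of all genes. The same 20 genes were co-bound (39.2%), against 9.98%, so no gene of the set had reproducible USF2 without PLAG1-S beside it. Reproducible PLAG1-S without co-binding was found at 26 genes, some of which had USF2 peaks that were not reproducible. All 20 co-bound genes kept a co-bound peak when only 1 kb around a gene start was searched. The share of all genes there was 7.25% for co-binding and 7.33% for USF2. Only 15 of the 20 had a listed start. For genes without one, either end of the gene body counted as a start, so a peak at the far end could pass. PLAG1-S lay within 1 kb of a start at 42 of the 51 (82.4%), against 40.5% of all genes. The median gene body of the set was 30731 bp long, against 24115 bp for all genes. No test of the shares was made, because genes are not replicates. The set was chosen with earlier results of these data known, so the shares are a description and not independent support.

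Counted in each library, 47 genes had a PLAG1-S peak in clone 4 and 47 in clone 5, against 64.0% and 58.3% of all genes. A USF2 peak lay at 27 genes in clone 4 and at 21 in clone 5, against 25.3% and 13.6% of all genes. The PLAG1-S and USF2 counts did not overlap. The difference of 23 genes between the means had a 2-sided exact permutation p of 0.333, the smallest that 2 libraries against 2 allow. The PLAG1-S lists hold peaks up to a q-value of 0.0099 in clone 4 and 0.0097 in clone 5, and the USF2 lists up to 0.049 and 0.048.

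**Figure D1:**
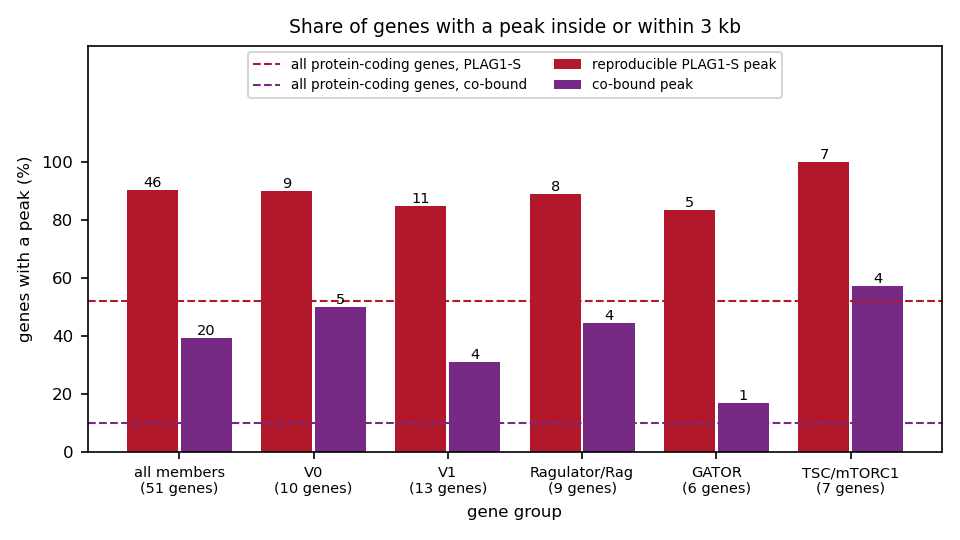
Share of genes (%, vertical axis) with a reproducible PLAG1-S peak (red bars) or a co-bound peak (purple bars) for all 51 genes and for the 5 groups compared, with the number of genes above each bar; dashed lines mark the shares among all protein-coding genes, 52.0% and 9.98%. Every bar stands above the line of its color, with the GATOR genes lowest for co-binding (1 of 6). That GATOR bar rests on WDR24 alone, whose peak lay nearer to JMJD8, so it is not an excess over all genes.

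The groups differed in their counts of co-bound genes. Co-binding was found at 5 of 10 V0 genes (50%), 4 of 13 V1 genes (30.8%), 4 of 9 Ragulator and Rag genes (44.4%), 1 of 6 GATOR genes (16.7%) and 4 of 7 TSC and mTORC1 genes (57.1%). Outside these groups, 2 of the 3 FLCN and FNIP genes were co-bound, and neither of the 2 accessory subunits nor the arginine sensor SLC38A9 was. PLAG1-S, counted with or without USF2, separated the groups less, at 9 of 10, 11 of 13, 8 of 9, 5 of 6 and 7 of 7 genes. With 6 to 13 genes in a group, a single gene moves these shares a great deal, and whether the groups differ was not tested. The groups do not hold every subunit of their complexes. SEH1L, which was co-bound, and SEC13, TBC1D7 and DEPTOR, which were not, were counted apart among further genes around mTORC1. The shares and their order therefore depend on which genes were placed in a group.

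Fold enrichment, the height of a peak at its summit over the local background from the inputs, is given below as clone 4 then clone 5. The strongest PLAG1-S peak of each gene had a median fold of 12.6 in clone 4 over the 46 genes, against 8.17 over the 10423 protein-coding genes with a peak. In clone 5 the same peaks had medians of 11.4 and 6.71. For USF2 the medians over the 20 genes were 15.7 in clone 4 and 10.0 in clone 5, against 8.38 and 6.11 over 2073 genes. At co-bound peaks the median PLAG1-S fold in clone 4 was 28.5, against 21.0 over all 2000 co-bound genes. At the genes with PLAG1-S and no co-binding it was 8.35, against 7.15. Of the 5 groups, V0 had the highest medians in clone 4 for both factors (28.2 for PLAG1-S over 9 genes and 24.3 for USF2 over 5), and V1 followed for USF2 (16.1 over 4) but not for PLAG1-S (11.3 over 11).

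**Figure D2:**
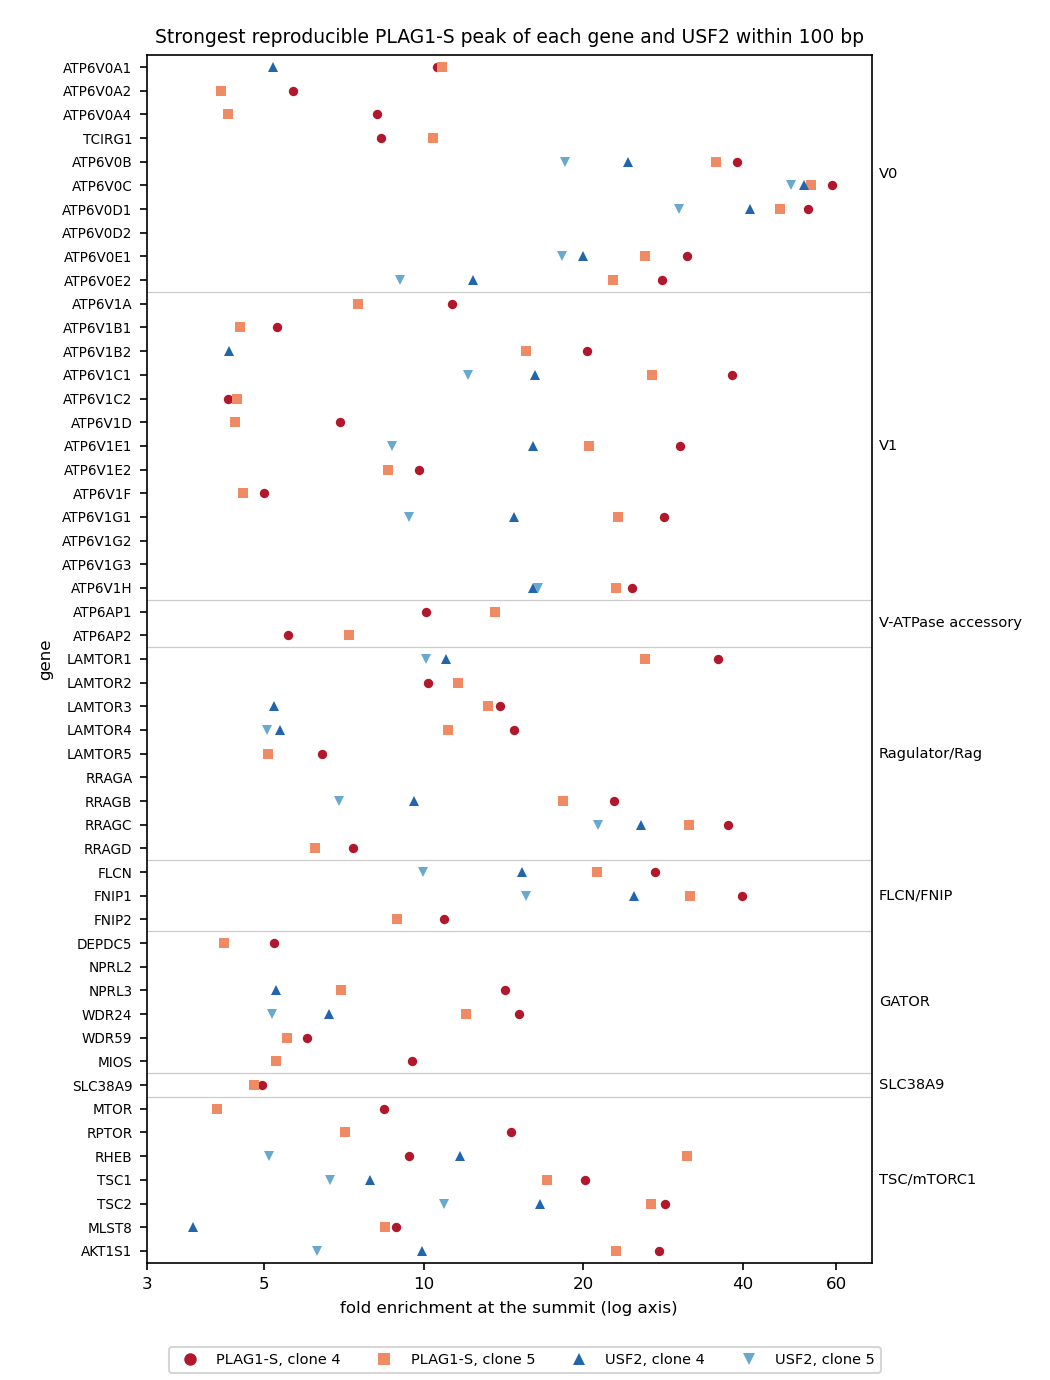
Fold enrichment at the summit (horizontal log axis) of the strongest reproducible PLAG1-S peak of each gene in clones 4 and 5 (red circles, orange squares) and of USF2 within 100 bp of it (blue up and down triangles), by gene group. Genes with 4 symbols are co-bound, empty lines are genes with no reproducible PLAG1-S peak, and RHEB is the co-bound gene whose PLAG1-S symbols lie far apart (9.38 and 31.4).

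In V0, both factors bound reproducibly at both genes of the ring, at both genes of subunit e and at 1 of the 2 genes of subunit d, and at no gene of the a subunit. ATP6V0D1 encodes subunit d, which couples the ring to the central stalk. Its peak at chr16:67480773-67481475, over the gene start, had PLAG1-S folds of 53.2 and 47.0 and USF2 folds of 41.2 and 30.3. It ranked 12th of 37574 PLAG1-S peaks and 8th of 9338 USF2 peaks by fold in clone 4. ATP6V0B, which encodes the c″ subunit of the ring, had PLAG1-S folds of 39.0 and 35.6 and USF2 folds of 24.3 and 18.5 at chr1:43974600-43975644. The summit lay 32 bp before the start and stood on 241 PLAG1-S fragments in clone 4 (95% Poisson interval 212 to 273, counting error only) over a local background of 5.20.

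ATP6V0C, which encodes the c subunit that makes up most of the ring, had 2 co-bound peaks. The peak over its own start, at chr16:2513676-2514837, had PLAG1-S folds of 24.3 and 18.8 and USF2 folds of 12.0 and 8.15. The peak at chr16:2519964-2521140 was the highest of the whole set, with PLAG1-S folds of 58.9 and 53.7 and USF2 folds of 52.2 and 49.4. It ranked 6th among PLAG1-S and 4th among USF2 peaks of clone 4. That peak lay 6384 bp after the start of ATP6V0C, 118 bp from the far end of the gene, and 35 bp from the neighboring gene AMDHD2, an enzyme of amino sugar breakdown. To which of the 2 genes it belongs cannot be told from peak positions.

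The small e subunits were both co-bound. ATP6V0E1 had PLAG1-S folds of 31.4 and 26.2 and USF2 folds of 20 and 18.2, with the summit 20 bp from an end of the gene body. ATP6V0E2 had PLAG1-S folds of 28.2 and 22.8 and USF2 folds of 12.4 and 9.0, with the summit 60 bp before the nearest start. The a subunit, which forms the proton channel with the ring, is encoded by ATP6V0A1, ATP6V0A2, TCIRG1 (a form best known from the osteoclast but counted below as broadly used) and ATP6V0A4 (a form known from the kidney). All 4 genes had PLAG1-S without co-binding. ATP6V0A1 had its strongest PLAG1-S peak 61198 bp after the start, at folds of 10.6 and 10.8, with a USF2 peak of 5.18 in clone 4 and none in clone 5. Its peak at the start had PLAG1-S folds of 9.51 and 5.56 and no USF2. TCIRG1 (8.29 and 10.4), ATP6V0A2 (5.65 and 4.14) and ATP6V0A4 (8.17 and 4.27) had no USF2 peak within 3 kb in either clone. ATP6V0D2, the second form of subunit d, had no peak in any list.

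In V1, the co-bound genes were ATP6V1C1, ATP6V1E1, ATP6V1G1 and ATP6V1H. Subunits C, E and G form the peripheral stalks that hold V1 on V0, and H regulates the coupling of the 2 sectors. ATP6V1C1 had PLAG1-S folds of 38.1 and 27.0 and USF2 folds of 16.2 and 12.1. ATP6V1E1 had PLAG1-S folds of 30.4 and 20.5 and USF2 folds of 16.1 and 8.72. ATP6V1G1 had PLAG1-S folds of 28.4 and 23.3 and USF2 folds of 14.8 and 9.36. The last of these 4 genes, ATP6V1H, was the one co-bound gene whose USF2 fold was not lower in clone 5. Its PLAG1-S folds were 24.7 and 23 and its USF2 folds 16.1 and 16.4. The USF2 folds of the 4 genes in clone 4 were close to one another, from 14.8 to 16.2.

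The genes of the catalytic head and of the V1 part of the rotor were not co-bound. ATP6V1A encodes the catalytic A subunit and had PLAG1-S folds of 11.3 and 7.50, with no USF2. ATP6V1B2 encodes the widely used form of subunit B. Its PLAG1-S folds of 20.3 and 15.6 were the highest of any gene in the set without co-binding, and its USF2 peak of 4.28, on 18 fragments, was called in clone 4 alone. The V1 rotor genes ATP6V1D (6.94 and 4.39) and ATP6V1F (5.00 and 4.56) had PLAG1-S near the start and no USF2. This division of V1 by place in the enzyme was made after the values were seen.

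Several subunits come in a broad and a tissue-restricted form, a split taken here from general knowledge, since no expression was measured. Of the 16 broadly used V0 and V1 genes, all 16 had a reproducible PLAG1-S peak and 9 were co-bound (56.2%). Both genes of subunit e, ATP6V0E1 and ATP6V0E2, were counted as broad and are among the 9. Had ATP6V0E2 been placed with the restricted genes, those would have included a co-bound gene. Of the 7 restricted genes (ATP6V0A4, ATP6V0D2, ATP6V1B1, ATP6V1C2, ATP6V1E2, ATP6V1G2 and ATP6V1G3), 4 had PLAG1-S (57.1%) and none was co-bound, against 52.0% and 9.98% of all genes, so with 7 genes neither count stands far from the share of all genes. The PLAG1-S peaks of ATP6V0A4, ATP6V1B1 (5.27 and 4.5) and ATP6V1C2 (4.27 and 4.44) lay 11054, 22132 and 41482 bp after the nearest listed start. ATP6V1E2 was the restricted gene with PLAG1-S at an end of its gene body (9.80 and 8.54), at a site shared with a neighboring gene. ATP6V1G3 had no peak in any list, and the PLAG1-S peaks of ATP6V1G2 in the 2 clones did not overlap. The accessory subunits ATP6AP1 (10.1 and 13.6) and ATP6AP2, the prorenin receptor (5.53 and 7.22), had PLAG1-S peaks at their starts with no USF2.

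Among the genes that place mTORC1 at the lysosome, co-binding was found at 2 of the 5 Ragulator genes and 2 of the 4 Rag genes. LAMTOR1, the lipid-anchored subunit that ties Ragulator to the membrane, had PLAG1-S folds of 35.9 and 26.2 and USF2 folds of 11 and 10.1. The PLAG1-S to USF2 fold ratio of 3.25 was the highest of the co-bound genes in clone 4, but in clone 5 the ratio was higher at RHEB, AKT1S1 and RRAGB. LAMTOR4 had the lowest USF2 folds in clone 4 of the co-bound genes, at 5.35 and 5.06, beside PLAG1-S folds of 14.8 and 11.1. LAMTOR3 (13.9 and 13.2) had PLAG1-S near LAMTOR4's level, and a USF2 peak of 5.20 on 22 fragments in clone 4 that was not called in clone 5. LAMTOR5 (6.42 and 5.07) had PLAG1-S alone. The PLAG1-S peaks given to LAMTOR2 (10.2 and 11.6 at the stronger) lay nearer to the ubiquitin-binding gene UBQLN4.

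A Rag dimer pairs RagA or RagB with RagC or RagD. RRAGC was the strongest of the Rag genes, with PLAG1-S folds of 37.5 and 31.6 and USF2 folds of 25.7 and 21.3 at chr1:38859532-38860226. RRAGB had PLAG1-S folds of 22.9 and 18.3 and USF2 folds of 9.56 and 6.92. One gene of each class was thus co-bound, while RRAGD had PLAG1-S alone (7.35 and 6.24) and RRAGA had no peak in any list. FNIP1 and FLCN, which together act on RagC and RagD, were both co-bound. FNIP1 had PLAG1-S folds of 39.9 and 31.8 and USF2 folds of 24.9 and 15.6, and FLCN had 27.3 and 21.2 with 15.3 and 9.94, at a summit 523 bp before the nearest start. FNIP2, the related partner of FLCN, had PLAG1-S alone (10.9 and 8.88).

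The GATOR genes of the set, which carry the amino acid signal to RagA and RagB, stood lowest of the 5 groups for co-binding. SEH1L and SEC13, further subunits of GATOR2, were not counted in this group. SEH1L was co-bound and SEC13 was not. None of the GATOR1 genes was co-bound. DEPDC5 had PLAG1-S folds of 5.21 and 4.20 at its start, NPRL2 had no peak in any list, and NPRL3 had 4 PLAG1-S peaks. The strongest NPRL3 peak lay 41504 bp into the gene (14.2 and 6.98) with a USF2 peak of 5.25 in clone 4 alone, and the peak at its start had PLAG1-S folds of 11.5 and 8.37 with no USF2. Of the GATOR2 genes in the group, WDR59 (6.01 and 5.52) and MIOS (9.51 and 5.25) had PLAG1-S alone. WDR24 was co-bound, with PLAG1-S folds of 15.1 and 12.0 and USF2 folds of 6.62 and 5.17. Its peak at chr16:683695-684552 lay outside the gene body, with the summit 433 bp from the gene and 145 bp from JMJD8, so the GATOR count was 0 when peaks nearer to another gene were left out. SLC38A9 had PLAG1-S folds of 4.95 and 4.77 at its start and no USF2.

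In the group of the TSC complex and mTORC1, TSC1, TSC2, RHEB and AKT1S1 were co-bound and MTOR, RPTOR and MLST8 were not. TSC2, the GTPase-activating subunit that turns RHEB off, had PLAG1-S folds of 28.5 and 26.8 and USF2 folds of 16.6 and 10.9. Its peak at chr16:2047409-2048119 covers a start shared with the DNA repair gene NTHL1, with the summit 108 bp from TSC2 and 43 bp from NTHL1. TSC1, the stabilizing partner of TSC2, had PLAG1-S folds of 20.1 and 17.1 and USF2 folds of 7.92 and 6.66, at a summit 332 bp before the nearest start and 583 bp from GFI1B. AKT1S1 encodes PRAS40, an inhibitory subunit of mTORC1. Its PLAG1-S folds were 27.8 and 23 and its USF2 folds 9.90 and 6.29, and the summit lay 831 bp from an end of the gene and 177 bp from TBC1D17. Without peaks nearer to another gene, the group had 2 co-bound genes, TSC1 and RHEB, in place of 4.

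MTOR, the kinase itself, had PLAG1-S folds of 8.41 and 4.06 near its start, and its USF2 peak, in clone 4 alone, lay 117011 bp away. MLST8 had PLAG1-S folds of 8.87 and 8.45 with a USF2 peak of 3.67 in clone 4 alone. RPTOR, the subunit by which mTORC1 meets the Rags, had 3 reproducible PLAG1-S peaks inside its long gene body and none at its start. The strongest of them in clone 4, at folds of 14.6 and 7.10, lay 30738 bp after the start, and the strongest in clone 5, at 8.88 and 11.4, lay 345083 bp after it. RPTOR also had 2 USF2 peaks in clone 4 and 1 in clone 5, none of which overlapped.

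RHEB was the gene at which the clones differed most. Its PLAG1-S fold was 9.38 in clone 4 and 31.4 in clone 5, whereas its USF2 fold was 11.7 in clone 4 and 5.10 in clone 5. The PLAG1-S summits stood on 104 fragments in clone 4 (95% Poisson interval 85.0 to 126) and 247 in clone 5 (217 to 280), and lay 127 and 176 bp after the start. The local background was 10.2 at the clone 4 summit, the highest of the 71 reproducible PLAG1-S peaks of the set, and 6.90 at the clone 5 summit. At the other 19 co-bound genes the clone 5 to clone 4 ratio of PLAG1-S folds lay between 0.675 and 0.94. The ratio of 3.35 at RHEB was reached by 67 of all 21469 reproducible PLAG1-S peaks (0.312%). RHEB was also the only co-bound gene of the set with a higher USF2 than PLAG1-S fold in clone 4. The cause was not tested.

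At most other co-bound genes both factors gave somewhat lower folds in clone 5. The clone 5 to clone 4 ratio had a median of 0.823 for PLAG1-S over the 20 genes, against 0.813 over all 2108 co-bound peaks. For USF2 the ratio had a median of 0.742 and ran from 0.435 at RHEB to 1.02 at ATP6V1H, against 0.824 over all 2409 reproducible USF2 peaks. Both folds were lower in clone 5 at 18 of the 20 genes, all but RHEB and ATP6V1H. ATP6V0C and ATP6V0D1 had the highest folds of the set for both factors in both clones, as the plot of PLAG1-S against USF2 shows for clone 4. For ATP6V0C this is the peak 35 bp from AMDHD2. The peak at its own start had clone 4 folds of 24.3 for PLAG1-S and 12.0 for USF2.

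**Figure D3:**
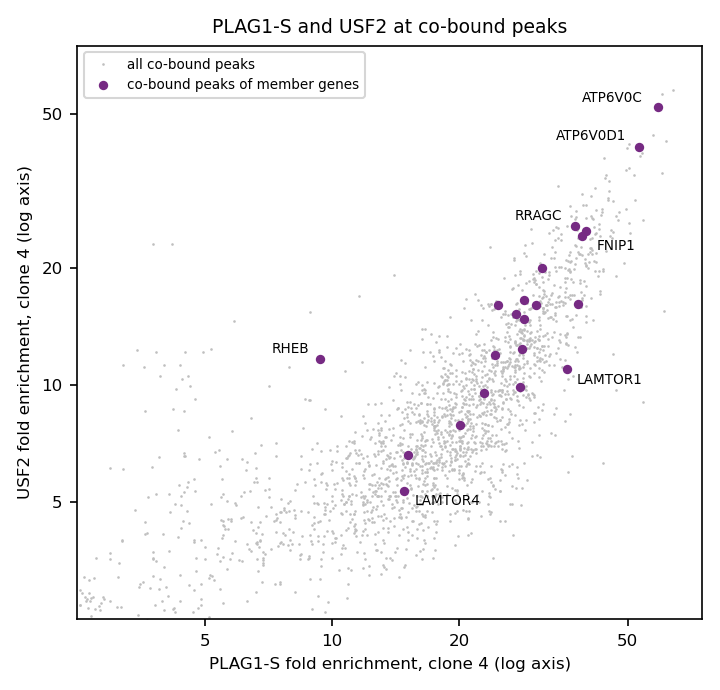
PLAG1-S fold (horizontal log axis) and USF2 fold (vertical log axis) in clone 4 at all 2108 co-bound peaks (grey) and at those of the gene set (purple). ATP6V0C (58.9 and 52.2, at the peak beside AMDHD2) and ATP6V0D1 (53.2 and 41.2) lie at the upper end, LAMTOR4 (14.8 and 5.35) at the lower end, LAMTOR1 (35.9 and 11) below and RHEB (9.38 and 11.7) to the left of the other genes.

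Most co-bound peaks of the set lay close to gene starts. Over the 15 co-bound genes with a start in the promoter table, the summit of the strongest co-bound peak was a median of 90 bp from the nearest start, and 12 of the 15 (80%) lay within 150 bp. Over the 1644 protein-coding genes treated the same way, the median was 250 bp and the share within 150 bp was 41.8%. For the 21 genes with PLAG1-S and no co-binding, the median was 265 bp and 10 (47.6%) lay within 150 bp. Over 6764 genes treated the same way the values were 458 bp and 25.6%. Of the 15 co-bound genes, those outside 150 bp were FLCN, TSC1 and ATP6V0C. The co-bound genes without a listed start could be measured only to the nearer end of the gene body. Their summits lay 14 bp from it at ATP6V1C1, 20 bp at ATP6V0E1, 39 bp at ATP6V1H, 433 bp at WDR24 and 831 bp at AKT1S1.

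The E-box was common in the promoters of the co-bound genes and rare in those of the other genes of the set. Promoters of 300 bases, from 250 before to 50 after the start, were listed for 39 of the 51 genes. CACGTG, which reads the same on both strands, was in the promoter of 10 of the 15 listed genes that were co-bound within 1 kb of a start (66.7%). It was in 1 of the other 24 (4.17%), and the exception was NPRL3, with the motif starting 26 bases after the start. Among all protein-coding genes with a listed promoter, 58.0% of 1194 co-bound genes and 10.9% of all 15842 held CACGTG. Of 5436 genes with PLAG1-S and no co-binding, 11.1% held it, so the division was not particular to the set. The longer TCACGTGA, which contains CACGTG, was in the promoters of ATP6V0D1, ATP6V1G1, RRAGB and TSC2, that is 26.7% of the 15, against 15.8% of the 1194 co-bound genes and 1.65% of all. Presence of the letters does not show that the factor binds there, and shared promoters were counted for each gene. The bipartite PLAG1 consensus, searched on both strands, did not divide the set in the same way, with 7 of the 15 co-bound genes (46.7%) and 11 of the other 24 (45.8%), against 38.5% of all promoters.

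At most of these genes the summits lay on or beside the motif. At 11 co-bound genes the PLAG1-S summit of clone 4 was inside the promoter window, and 10 of the 11 windows held CACGTG, against 85.5% of 740 genes treated the same way. The distance from the PLAG1-S summit to the center of the nearest CACGTG had a median of 5.5 bp over the 10 genes, against 7.5 bp over 633 genes, and 8 of the 10 (80%) lay within 25 bp, against 90.4%. The set thus did not stand apart from other co-bound genes in these measures. It was 1.5 bp at LAMTOR4 and FNIP1, 3.5 bp at TSC2, 4.5 bp at ATP6V0B, 5.5 bp at ATP6V0D1 and ATP6V0E2, and 6.5 bp at RRAGC. RRAGB followed with 13.5 bp, ATP6V1G1 with 31.5 bp and LAMTOR1 with 36.5 bp. The USF2 summits of clones 4 and 5 lay 7.5 and 5.5 bp from the motif at ATP6V0B, and 6.5 and 17.5 bp from it at ATP6V0D1. LAMTOR1 was the least compact, with summits from 126 to 3 bp before the start among the 4 libraries.

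Co-binding was also found where the window held no CACGTG. ATP6V1E1 had its summit 25 bp after the start, no CACGTG in the window and a USF2 fold of 16.1, against a range of 5.35 to 41.2 over the 10 genes with the motif. The start peak of ATP6V0C had its summit 23 bp before the start and no CACGTG in the window either. At FLCN, TSC1 and RHEB the summits lay outside the window searched, so the bases under them were not read.

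**Figure D4:**
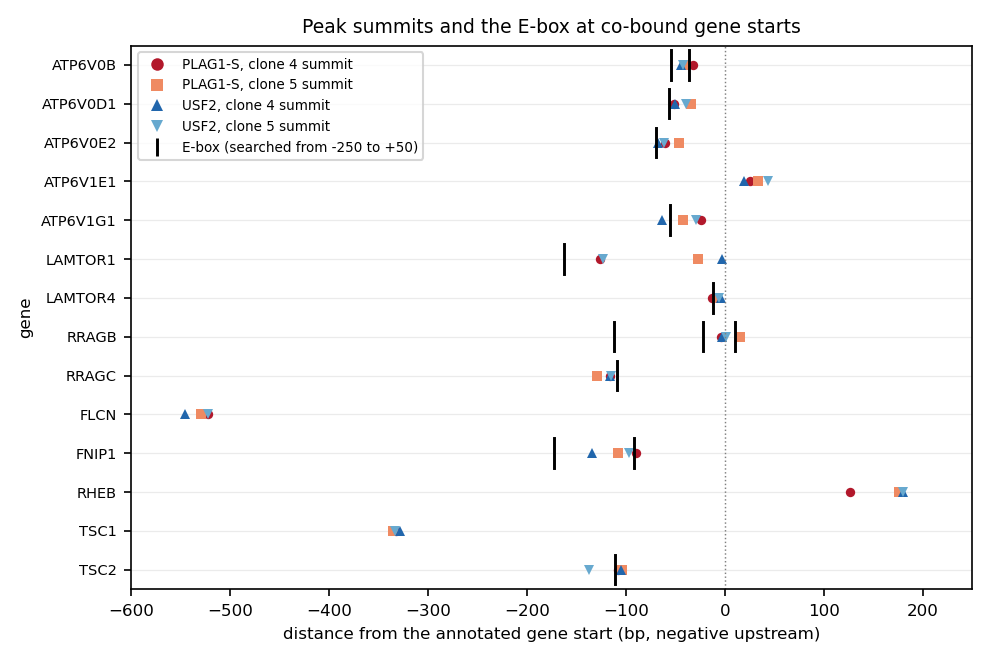
Summit positions of the 4 libraries (symbols) and E-boxes (black bars) around the annotated start of 14 co-bound genes, in bp from the start on the horizontal axis, with negative values upstream; the E-box was searched from 250 bp before to 50 bp after the start. Summits gather at a bar at most genes with one, while the summits of FLCN, TSC1 and RHEB lie outside the searched window.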

How the data were processed

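The analysis started from 4 peak lists, 1 per immunoprecipitated library, which the authors called with MACS2 on hg38 against the merged inputs. The inputs themselves were used only through these lists. The submitters' processing notes also name FastQC, cutadapt, HISAT2 2.0.4, SAMtools, bedtools and HOMER, and the MACS2 version is not given in the sources used here. The authors deposited, per peak, the fold enrichment, a ratio of summit height to local background, the −log10 p-value and the −log10 q-value. The deposited score is 10 times the −log10 q, rounded down, at 100% of peaks, and was not used further. Fragment numbers and background at each summit were solved for from the fold and the −log10 p (tolerance 0.001), and fragment numbers were right for 500 of 500 simulated summits. The lists hold 37574 and 29889 PLAG1-S peaks (clones 4 and 5) and 9338 and 4369 USF2 peaks. Peak lists do not show reads outside peaks, so a gene without a peak had none past the threshold of the list.

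Genes and bodies came from RefSeq (GRCh38.p14). Where no promoter was listed (12 genes), distances were taken to the nearer end of the gene body, and either end counted as a start. The 51 genes, their groups and the lists were chosen with earlier results of these data known. Named were all co-bound genes, the strongest gene of each group for each factor, genes with no peak in any list or a peak in 1 clone, neighboring genes that share a peak and, beyond this rule, the other genes of each group, added after their values were seen. Same-numbered libraries came from the same clone, so the replicate number pairs them. Counts were set beside the share of all genes, and the only test was an exact permutation over the 4 libraries. Analyses used Python 3.11.15, pandas 2.3.3, numpy 2.4.6 and scipy 1.17.1.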

Additional observations from a re-analysis of the deposited data

How the results depend on the processing

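The counts of genes with PLAG1-S, USF2 and co-bound peaks stayed within 1.5 times their values in every alternative run (the lowest PLAG1-S count was 33, at a −log10 q of at least 10). Over all results, 95 of 104 alternative values were taken as the same. For counts this meant within 1.5 times. For median folds the limit was narrower than the spread over genes. The PLAG1-S medians of 11.3 and 11.4 and the USF2 median of 10.0 given below were taken as moved. The USF2 median of 11.7 was taken as the same. The number of co-bound genes (20) ran from 17, when peaks nearer to another gene were left out (chosen after seeing the data), to 25 with peaks of either clone. The share of all genes moved more, from 9.98% to 22% with peaks of either clone, so the set stood less far above all genes there. At a −log10 q of at least 10, PLAG1-S lay at 33% of all genes and co-binding at 5.74%, beside 33 and 19 genes of the set. The share of all genes was not computed without peaks nearer to another gene. The GATOR count (1) became 0 at a −log10 q of at least 10, with gene bodies alone, and without peaks nearer to another gene, and 2 with peaks of either clone, so it rests on the WDR24 peak. The TSC and mTORC1 count (4) became 2 without peaks nearer to another gene. Leaving out 1 clone gave 47 genes with PLAG1-S, 21 to 27 with USF2 and 20 to 25 co-bound, with 5 to 6 in V0, 4 to 5 in V1, 4 to 5 in Ragulator and Rag, 1 to 2 in GATOR and 4 to 5 in TSC and mTORC1. The shares of all genes with 1 clone were 58.3% to 64% for PLAG1-S, 13.6% to 25.3% for USF2 and 11.3% to 20.5% for co-binding. The median PLAG1-S fold moved from 12.6 to 11.3 with all clone 4 peaks and to 11.4 in clone 5. The median USF2 fold moved from 15.7 to 11.7 with all clone 4 peaks and to 10.0 in clone 5. The cause was not tested.

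In the paired analysis (replicate block), the factors were compared clone by clone and the counts averaged. This gave 22.5 co-bound genes, with 5.5 in V0, 4.5 in V1, 4.5 in Ragulator and Rag, 1.5 in GATOR and 4.5 in TSC and mTORC1. The difference of 23 genes between PLAG1-S and USF2 libraries had an exact permutation p of 0.5 within clones, the smallest this pairing allows. The search for CACGTG in peak sequence was not run. The USF2 list of clone 5 has 4369 peaks against 9338 in clone 4, at the same stated depth, and 7 genes had a USF2 peak only in 1 clone or at different places in the 2 clones.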

Other observations

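Of 12 further genes of V-ATPase assembly and interaction, 11 were matched. A reproducible PLAG1-S peak lay at 9 of them, and RNASEK, a small protein that associates with V0, was the 1 co-bound gene, with PLAG1-S folds of 20.1 and 14.7 and USF2 folds of 7.19 and 5.39 in clones 4 and 5. TLDC2 had no peak in any list.

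Of 17 further genes around mTORC1, most of them in nutrient sensing and some of them subunits or substrates of mTORC1, 15 had PLAG1-S and 3 were co-bound. PIP4P1, a lysosomal phosphoinositide phosphatase, had PLAG1-S folds of 38.6 and 24.7 and USF2 folds of 13.3 and 9.51. SEH1L, a subunit shared by GATOR2 and the nuclear pore, had PLAG1-S folds of 13 and 10.5 and USF2 folds of 7.16 and 5.58. CASTOR2 had weak peaks inside the gene, with PLAG1-S folds of 5.77 and 3.82 and USF2 folds of 4.47 and 2.97. It lies in a duplicated stretch of its chromosome, where short reads cannot always be placed on one copy. SESN3 had no peak in any list. For all protein-coding genes the co-bound share was 9.98%.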
